A study of Mus musculus with 24 samples.

Results

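Genes that mark monocytes and macrophages were followed through cultures of mouse eosinophils grown from bone marrow, across genotype and cytokine treatment. The list held 33 genes, which were chosen with earlier results of these data known and taken by symbol from the count files. Of these, 32 had at least 1 read in the 24 libraries and make up the set described here, out of 25746 genes in the files. Marco, a scavenger receptor of tissue macrophages, had 0 counts in all 24 libraries and was dropped. A filter on low counts kept 31 of the listed genes among 11885 tested genes. It left out Cd163, the haemoglobin scavenger receptor, which had 11 counts in all and was at 0 in 21 libraries.

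The cells came from C57BL/6 mice, whose age and sex were not given. Until day 4 the marrow was kept in FLT3 ligand (100 ng/ml) with stem cell factor (100 ng/ml), and after that in interleukin-5 (IL-5, 10 ng/ml), the cytokine that drives eosinophil growth. Dead cells were removed on day 13. Overnight stimulation followed, where given with 20 ng/ml of GM-CSF (granulocyte-macrophage colony-stimulating factor), and strand-specific libraries were then made from polyadenylated RNA. Every group of 3 libraries had IL-5 throughout, the untreated ones included. Wild-type (WT) cells were untreated or received GM-CSF, interleukin-10 (IL-10) or both cytokines. The dose of IL-10 was not stated. Cells labelled Csf2ra-/-, which should lack the alpha chain of the GM-CSF receptor, and cells labelled Irf5-/-, which should lack a transcription factor of inflammatory macrophages, were untreated or received GM-CSF. The labels do not say how either gene was disrupted, or whether the 3 libraries of a group came from separate mice or cultures, and the p-values measure the spread between these libraries.

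Total counts ran from 6222979 to 18709153 per library. The shallowest libraries were untreated replicate 1 labelled Irf5-/-, with 6222979 counts, and untreated Csf2ra-/- replicate 1, with 8637672. Csf2ra was lower but present in the Csf2ra-/- libraries, at 28.5, 29.9 and 38.4 CPM (reads of the gene scaled to the library's total) untreated against 53.4, 56.5 and 59.2 CPM in WT. Irf5 went against its label: the libraries labelled Irf5-/- had 1569, 1577 and 1891 CPM untreated against 47.6, 55.4 and 59.6 CPM in WT, a 31.0-fold higher level. Any direction given below for those libraries holds for the label only, with this mismatch. The summed level of 4 Y-linked genes, which only male cells carry, set libraries apart within groups. It was 45.8 to 59.9 CPM in 6 WT libraries and 174 to 186 CPM in the other 6, with both kinds in every WT group, and 12.2 to 179 CPM in the libraries labelled Irf5-/-, so the libraries of these groups were not all repeats of 1 culture. All 6 Csf2ra-/- libraries were high, at 152 to 184 CPM, and for them a purely technical spread between replicates cannot be told apart from a biological one. The summed level of 12 eosinophil genes was 76550 to 95350 CPM as group means, so the libraries carried the labelled cell type's defining genes at a high level.

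Monocytes leave the bone marrow with the help of the chemokine receptor Ccr2 and can become macrophages or dendritic cells in tissues. Macrophages take up dying cells, microbes and modified proteins through scavenger and lectin receptors, break them down with lysosomal proteases, and secrete complement C1q. Their survival depends on colony-stimulating factors: CSF1 acts through Csf1r, and GM-CSF through a receptor of Csf2ra and a shared beta chain, which eosinophils also carry. In cultures that start from mixed bone marrow progenitors, such genes are read as a sign of cells of the monocyte lineage beside the eosinophils, although several of them, such as Adgre1, which encodes F4/80, are also active in mouse eosinophils.

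Promoter stretches are shown for 3 members from the lectin receptor and C1q groups, which were lower together in Csf2ra-/- cells, because many myeloid genes are bound near their start by the transcription factor PU.1. The 3 are among the members found to hold the motif given below. The sequences are from RefSeq on GRCm38.p6 and run on the gene's strand from base 250 to base 31 before the start site. Capitals mark AGGAAGT, a PU.1-type motif, or ACTTCCT, the same motif on the opposite strand. They cover chr2:14229164-14229383 on the plus strand for Mrc1, chr11:70130107-70130326 on the plus strand for Mgl2 and chr4:136886231-136886450 on the minus strand for C1qb, all upstream of the annotated exons.
Mrc1: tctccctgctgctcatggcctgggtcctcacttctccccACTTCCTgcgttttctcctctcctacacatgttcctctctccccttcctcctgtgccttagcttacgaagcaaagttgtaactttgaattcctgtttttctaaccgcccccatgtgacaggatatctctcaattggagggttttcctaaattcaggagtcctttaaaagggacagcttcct
Mgl2: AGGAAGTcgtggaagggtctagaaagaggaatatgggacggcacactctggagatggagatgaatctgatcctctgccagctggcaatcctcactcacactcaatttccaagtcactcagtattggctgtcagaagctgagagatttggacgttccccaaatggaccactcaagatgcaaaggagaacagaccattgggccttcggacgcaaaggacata
C1qb: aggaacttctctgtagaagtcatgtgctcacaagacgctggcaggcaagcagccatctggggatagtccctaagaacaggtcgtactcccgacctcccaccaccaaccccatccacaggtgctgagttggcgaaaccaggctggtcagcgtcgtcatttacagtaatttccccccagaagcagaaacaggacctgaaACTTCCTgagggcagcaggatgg

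RefSeq promoters were found for 26 of the 33 listed genes. The motif was present on either strand in the 250 bases before the start of 11 of them: C1qb, C1qc, F13a1, Fcgr1, Fcgr4, Ly6c2, Lyz2, Mgl2, Mrc1, Ms4a6c and Pf4. Over all 32851 promoters of that length in the table it was present in 7.69%, a share per promoter. The 26 genes had 31 promoters and counted with a match in any of them, so the count and the share are in unlike units. A match gives the letters only, and no binding was measured. The motif was found both in members that were lower in Csf2ra-/- cells and in Ly6c2, Fcgr1 and Fcgr4, which did not pass the test there.

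The members spanned a wide range of levels, which are comparable between genes only per kilobase of exon. The highest median over the 24 libraries, in CPM per kilobase, was 859 for Ctsd, the lysosomal aspartic protease cathepsin D. Ly6c2, a surface protein of inflammatory monocytes, followed at 469, Adgre1 at 249 and Lyz2, the lysozyme of myeloid cells, at 122 CPM per kilobase. The next were Ctsb (cathepsin B) at 61.2, Mgl2 (a galactose-binding lectin) at 38.9, Adgre4 (a relative of F4/80) at 36.0, Cd68 (a lysosomal membrane glycoprotein) at 34.6 and Csf1r (the CSF1 receptor) at 24.3 CPM per kilobase. The receptors and secreted proteins closest to mature macrophages were low: Mrc1, the mannose receptor CD206, had a median of 1.02, C1qb 2.29, C1qc 0.831, C1qa 0.221 and Ms4a7 0.161 CPM per kilobase. Eosinophil genes such as Epx, the eosinophil peroxidase, stood far above them, with a median of 5524 CPM per kilobase. Lyz2, Ly6c2, Mgl2 with Clec10a, and the 3 Ms4a genes have close relatives in the genome, and the labels do not say how reads with several matching genes were counted. Their levels are uncertain to that extent.

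**Figure D1:**
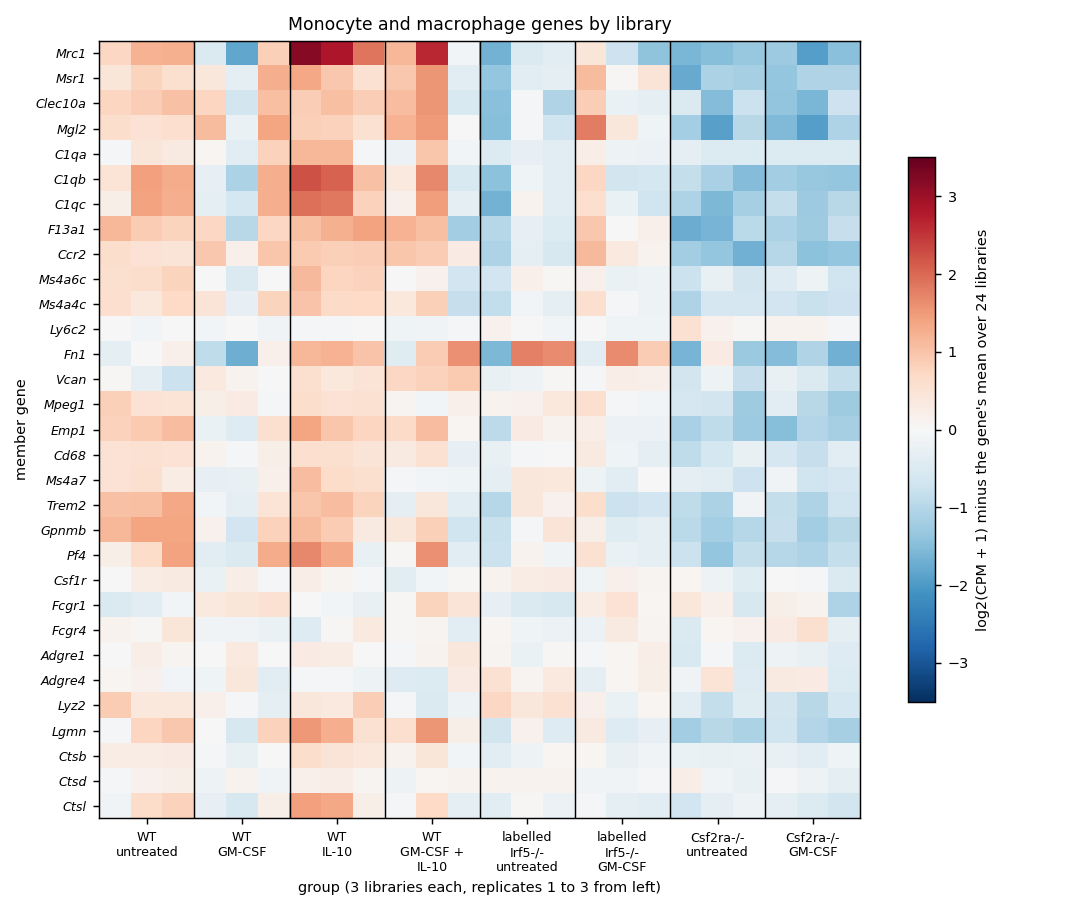
Heat map of the 31 tested members (rows, grouped by role) in 24 libraries (columns, 8 groups of 3), as log2(CPM + 1) minus the gene's mean over the libraries, with red above and blue below that mean. Mrc1, the C1q genes, Gpnmb and Lgmn differ between groups and between libraries of a group, while Ly6c2, Ctsd and Csf1r stay near their means in all groups.

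Steady and variable members stood side by side in the list. Over the 24 libraries Ctsd ranged from 1583 to 2358 CPM and Ly6c2 from 1191 to 1915 CPM. Mrc1 ranged from 1.66 CPM in a GM-CSF-treated Csf2ra-/- library to 91.9 CPM in a WT library with IL-10, a 55.5-fold span. The sum of all members was set by the few abundant genes and moved little, from a group mean of 4629 CPM in GM-CSF-treated Csf2ra-/- cells to 6177 CPM in WT cells with IL-10. A score that weighs each gene equally was therefore taken per library, as the mean of log2(CPM + 1) over the 32 members.

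**Figure D2:**
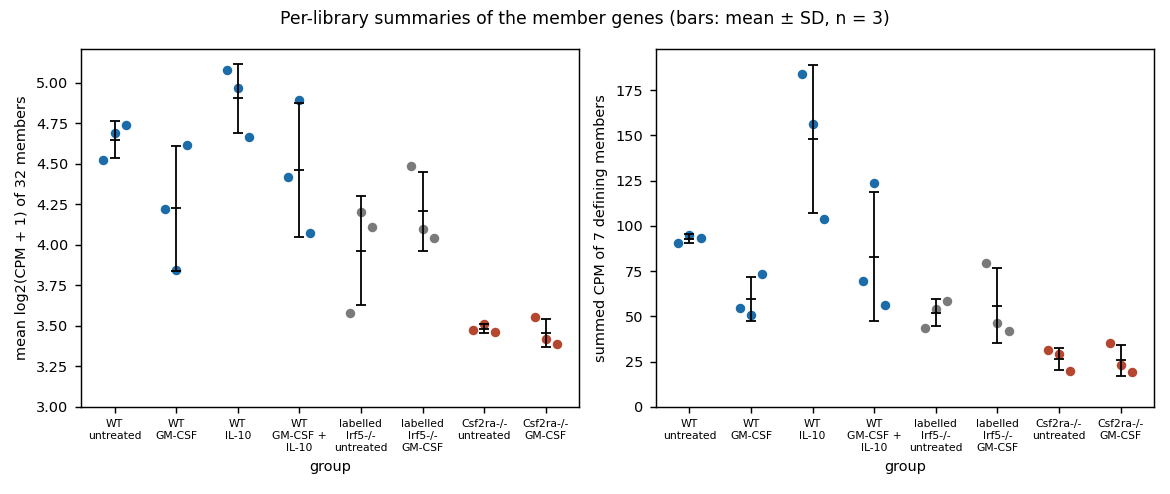
Left, member score per library, the mean log2(CPM + 1) of 32 members, on an axis that starts at 3. Right, summed CPM of 7 members (Mrc1, C1qa, C1qb, C1qc, Mpeg1, Ms4a7 and Fcgr1). Points are libraries, bars give the mean ± SD of 3 libraries, and the 6 Csf2ra-/- libraries have the lowest scores, between 3.39 and 3.56.

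The score was highest in WT cells with IL-10, at 4.91 ± 0.215 (SD, n = 3), and lowest in Csf2ra-/- cells, at 3.48 ± 0.027 untreated and 3.46 ± 0.089 with GM-CSF. Untreated WT cells had 4.65 ± 0.112, WT cells with GM-CSF 4.23 ± 0.387 and WT cells with both cytokines 4.46 ± 0.413. The libraries labelled Irf5-/- lay between, at 3.97 ± 0.335 untreated and 4.21 ± 0.244 with GM-CSF. All 6 Csf2ra-/- libraries, at 3.39 to 3.56, were below every other library, of which the lowest had 3.58. Among the WT groups only GM-CSF, with a highest library at 4.62, and IL-10, with a lowest library at 4.67, did not overlap. The score moved with the Y-linked level in WT cells. The 6 WT libraries of low Y-linked level scored 4.62 to 5.08 and the 6 of high level 3.84 to 4.67, and in 4 of 4 WT groups the low ones lay above the high ones. Of the 3 libraries in a group, 2 were low in untreated WT cells and with IL-10, and 1 was low with GM-CSF, alone or with IL-10, so the order of the WT groups cannot be told apart from this make-up. Ordered by their means, each group overlapped with the next, except that the untreated libraries labelled Irf5-/- lay above the untreated Csf2ra-/- libraries.

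The comparison of untreated Csf2ra-/- with untreated WT cells asks how the receptor chain bears on the cultures when no GM-CSF is added. Csf2ra-/- cells had lower levels of most monocyte and macrophage genes. Of the 31 tested members 21 fell and 0 rose at an adjusted p under 0.05 (edgeR quasi-likelihood test, Benjamini-Hochberg adjustment over all tested genes). Over all tested genes 5.32% fell and 5.52% rose, 10.8% in all. The median log2 fold change was -1.91 over the members and 0.0033 over all tested genes. In 23 members every Csf2ra-/- library was below every WT library, as for 10.9% of all tested genes, and 1 member, Ly6c2, lay wholly above, as did 10.3%. The genotypes differed in Y-linked level as well, at 162, 165 and 181 CPM in the Csf2ra-/- libraries and 50.7, 56.9 and 175 CPM in WT. With that level as a term in the fit 17 members fell, and the share of all tested genes under that fit is not given here. The libraries of high Y-linked level alone include only 1 untreated WT library, so in this paragraph only the score difference is given for them. Calls for this comparison from the fit to these libraries, given further below, rest on that 1 WT library. The score difference was -1.17 over all libraries and -1.04 within this level. In bulk RNA, fewer cells of the monocyte lineage and less of these transcripts per cell cannot be told apart.

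All 4 tested scavenger and lectin receptors fell. Mrc1 had 2.34, 2.59 and 3.08 CPM in Csf2ra-/- against 15.8, 22.6 and 23.1 CPM in WT libraries, with no overlap. Its log2 fold change was -2.91 ± 0.79 (SE) with an adjusted p of 0.0264. Msr1, the class A scavenger receptor, had 0.247, 0.887 and 0.942 CPM against 4.64, 5.23 and 6.20 CPM, a log2 fold change of -2.79 ± 0.62 (adjusted p = 0.00879). The galactose-type lectins followed: Mgl2 was at 18.3, 30.1 and 35.8 CPM against 101, 106 and 108 CPM, and Clec10a at 3.95, 7.45 and 9.01 CPM against 22.9, 25.0 and 27.7 CPM. Their log2 fold changes were -1.91 ± 0.51 and -1.93 ± 0.54, with adjusted p of 0.0259 and 0.0296.

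The complement genes C1qb and C1qc fell and were low in absolute terms. C1qb had 0.532, 1.00 and 1.48 CPM against 5.16, 9.95 and 10.9 CPM, a log2 fold change of -3.20 ± 0.83 (adjusted p = 0.0211). C1qc had 0.0589, 0.414 and 0.493 CPM against 2.61, 6.66 and 7.41 CPM, and a log2 fold change of -4.21 ± 0.98 (adjusted p = 0.0123). C1qa, which encodes the first chain of the same protein, did not pass with an adjusted p of 0.0738. It had 1 count in the 3 Csf2ra-/- libraries and 25 in the 3 WT libraries, a ratio of 26.1 with a 95% interval of 4.27 to 1070 that covers counting error only.

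Of the 7 monocyte genes 4 fell. Ccr2 had 4.79, 6.36 and 7.03 CPM against 24.4, 25.7 and 27.8 CPM, and its log2 fold change of -2.12 ± 0.28 had the smallest adjusted p among the members, 0.000121. F13a1, the A subunit of coagulation factor XIII found in monocytes and macrophages, was at 1.23, 1.41 and 2.84 CPM against 11.6, 12.7 and 15.7 CPM, a log2 fold change of -2.80 ± 0.60. Ms4a6c and Ms4a4c, membrane proteins of the MS4A family, had log2 fold changes of -1.52 ± 0.31 and -2.34 ± 0.61. The other 3 did not pass. Ly6c2 was at 1345 to 1915 CPM in Csf2ra-/- and 1232 to 1339 CPM in WT cells, with a positive log2 fold change of 0.29 ± 0.10 (adjusted p = 0.0751). The matrix genes Fn1 (fibronectin) and Vcan (versican) had log2 fold changes of -0.75 ± 1.04 and -0.21 ± 0.19.

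All 6 phagocyte membrane and pore genes fell. Gpnmb, a glycoprotein of lipid-laden and activated macrophages, was the most abundant of them in WT cells by CPM, with 146, 172 and 172 CPM, and had 27.9, 31.9 and 33.4 CPM in Csf2ra-/- cells. Its log2 fold change was -2.40 ± 0.38 (adjusted p = 0.000916). Mpeg1, which encodes the pore-forming protein perforin-2, had 14.1, 22.0 and 22.8 CPM against 49.6, 49.9 and 63.6 CPM, a log2 fold change of -1.48 ± 0.21 (adjusted p = 0.000228). Emp1, an epithelial membrane protein, fell by 2.43 ± 0.35 on the log2 scale, Trem2, a lipid receptor of macrophages, by 2.02 ± 0.41, Ms4a7 by 2.23 ± 0.53 and Cd68 by 1.09 ± 0.19. Pf4, platelet factor 4, is made by megakaryocytes and also by macrophages. It fell by 2.48 ± 0.75 (adjusted p = 0.0411), from 4.05, 5.86 and 10.5 CPM to 0.707, 1.48 and 1.60 CPM. The platelet gene Ppbp was also lower, at 26.1 against 76.9 CPM as group means, while the integrin Itga2b was higher, at 1394 against 1038 CPM, and the part of megakaryocyte RNA in the Pf4 result was not tested.

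Lysosomal enzymes and surface receptors differed less. Lyz2 had 88.1, 117 and 120 CPM against 203, 206 and 292 CPM, a log2 fold change of -1.11 ± 0.18 (adjusted p = 0.000765). Lgmn, the asparagine-specific protease legumain, fell by 1.96 ± 0.44 and Ctsb by 0.51 ± 0.13, both on the log2 scale. Ctsl (cathepsin L), with 14.9 to 21.5 against 22.2 to 43.0 CPM, did not pass (adjusted p = 0.0711), and Ctsd had a log2 fold change of -0.15 ± 0.12. Adgre1 fell by 0.45 ± 0.14 with an adjusted p of 0.0476. Csf1r was at 102, 122 and 144 CPM against 138, 166 and 171 CPM, overlapping, with an adjusted p of 0.112. The Fc gamma receptors Fcgr1 and Fcgr4, which bind IgG, and Adgre4 had log2 fold changes of 0.53 ± 0.41, -0.36 ± 0.36 and -0.03 ± 0.25.

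**Figure D3:**
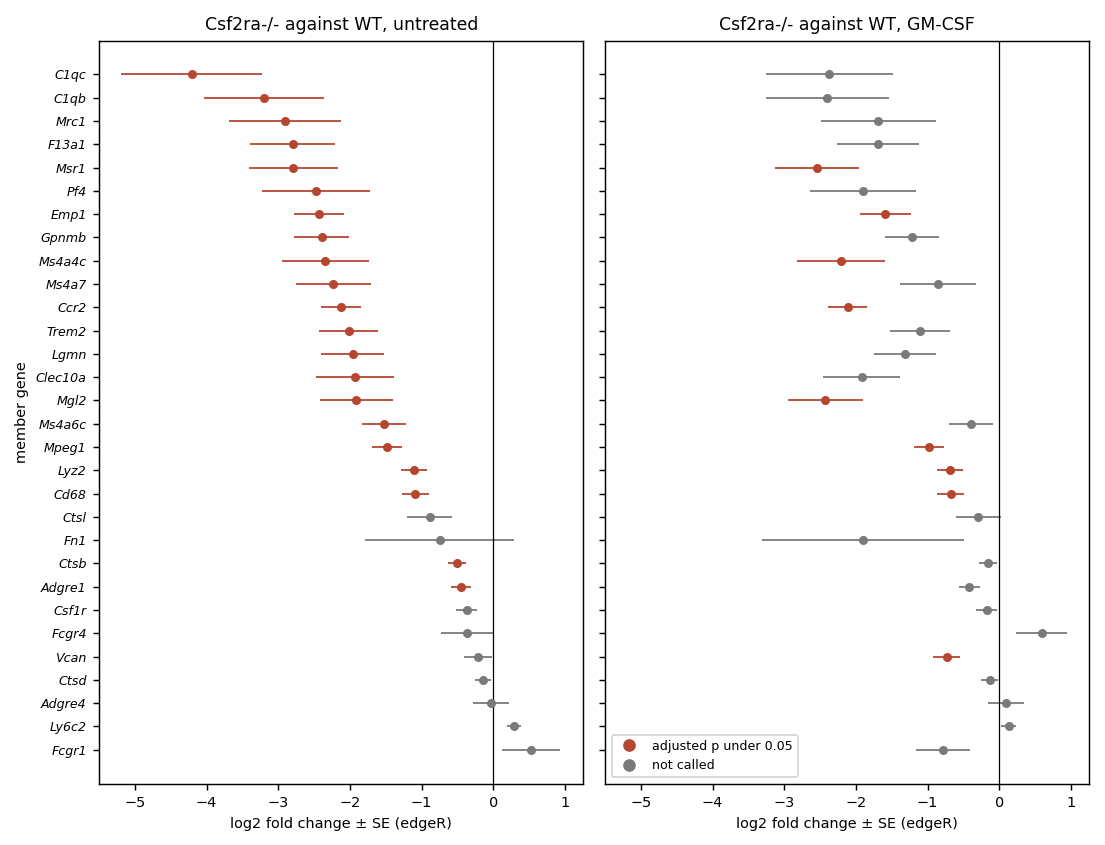
Log2 fold change ± SE of 30 tested members in Csf2ra-/- against WT cells, untreated (left) and with GM-CSF (right), with members ordered by the left panel and those at an adjusted p under 0.05 in red. C1qa is left out because a group had 0 counts, and most members lie to the left of 0 in both panels, fewer of them in red on the right.

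The count of lower members depended on single libraries. It was 12 without untreated Csf2ra-/- replicate 1, 11 without WT untreated replicate 2, 13 without WT untreated replicate 3 and 12 without the 2 shallowest libraries together, a check chosen after the data were seen. Ccr2, Lyz2, Mpeg1, Emp1 and Gpnmb passed under all 15 alternatives tried for this comparison. Cd68, F13a1, Ms4a6c and Trem2 failed under 1, the fit to libraries of high Y-linked level. Mrc1 failed under 9 of the 15, with adjusted p between 0.000692 and 0.125, and Adgre1 and Pf4 each failed under 10.

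Markers of other cells moved with the genotype too. The 13 dendritic cell genes summed to 122 to 226 CPM in untreated Csf2ra-/- libraries and 481 to 514 CPM in untreated WT libraries. Of the 12 tested 7 fell and 0 rose, against 5.32% and 5.52% of all tested genes. Most of this sum was the antigen presentation genes Cd74, H2-Ab1, H2-Aa and H2-Eb1, which macrophages also express. Xcr1, a marker of cross-presenting dendritic cells, was at 0 in all 24 libraries, and Zbtb46, a marker of conventional dendritic cells, was at 0.0394 CPM in Csf2ra-/- and 0.580 CPM in WT cells as group means. The eosinophil sum was 84000 to 113400 CPM in the Csf2ra-/- libraries and 77220 to 82290 CPM in the WT libraries. Much of it was Prg2, with a median of 42830 CPM over the 24 libraries. The 12 eosinophil genes went both ways: 2 rose and 2 fell, against 5.52% and 5.32% of all tested genes. Their median log2 fold change was 0.32. The erythroid sum was 64.2 to 133 against 28.9 to 37.0 CPM. Neutrophil genes were lower with the members: 4 of 11 fell and 0 rose, against the same 5.32% and 5.52% of all tested genes. Their median log2 fold change was -0.58, and their sum was 1337 to 1654 CPM against 1705 to 1965 CPM. With GM-CSF in both genotypes 3 of the 11 fell, against 2.89% of all tested genes. The lymphocyte sum was higher, at 125 to 144 against 75.1 to 103 CPM, as was the megakaryocyte and platelet sum, at 1374 to 1607 against 1113 to 1173 CPM. The stromal and endothelial sum, most of which was the endothelial and leukocyte gene Pecam1, was at 426 to 509 against 403 to 424 CPM, and the mast cell and basophil sum overlapped, at 479 to 690 against 411 to 484 CPM. The part of other cells in the members' result was not tested.

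With GM-CSF in both genotypes, Csf2ra-/- cells again had lower levels than WT cells, in fewer genes. Of the 31 tested members 9 fell and 0 rose, while 2.89% of all tested genes fell and 0.909% rose, 3.79% in all. The median log2 fold change was -1.11, against -0.0025 over all tested genes. The libraries did not overlap for 19 members in the lower direction and 0 in the higher, against 10.1% and 8.07% of all tested genes. Ccr2 had 5.87, 6.28 and 8.38 CPM against 19.9, 34.6 and 35.3 CPM, a log2 fold change of -2.11 ± 0.27 (adjusted p = 3.47e-05). Mgl2 had 17.8, 23.6 and 32.5 CPM against 59.4, 153 and 184 CPM, a log2 fold change of -2.43 ± 0.52 (adjusted p = 0.00984). Msr1 fell by 2.54 ± 0.59 and Ms4a4c by 2.21 ± 0.61 on the log2 scale. Emp1, Mpeg1, Lyz2, Cd68 and Vcan were the other 5, with log2 fold changes from -1.59 ± 0.36 for Emp1 to -0.68 ± 0.19 for Cd68. Vcan, which had not passed in untreated cells, had 8.57, 11.1 and 13.2 CPM against 16.4, 17.8 and 20.6 CPM.

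The WT libraries with GM-CSF lay far apart for several members that did not pass. Mrc1 had 1.66, 2.66 and 3.19 CPM in Csf2ra-/- and 1.86, 6.17 and 17.2 CPM in WT cells, with an adjusted p of 0.350. C1qb had 0.739, 0.752 and 0.919 CPM against 1.04, 2.63 and 9.70 CPM, without overlap but with an adjusted p of 0.161. C1qa had 0 counts in Csf2ra-/- and 29 in WT cells, at least 8.84-fold lower with a floor of 3 counts over the group. Clec10a had a log2 fold change of -1.92 ± 0.54 and missed the threshold with an adjusted p of 0.0541. The count of 9 was 2 without Csf2ra-/- GM-CSF replicate 2, 3 without its replicate 1, 4 without WT GM-CSF replicate 3, 5 without WT GM-CSF replicate 1 and 2 when these groups alone were fitted. It was 7 in the fit with a Y-linked term and 2, Ccr2 and Lyz2, among libraries of high Y-linked level. Ccr2 passed under all 15 alternatives.

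GM-CSF in WT cells asks whether the cytokine shifts these genes when its receptor is present. No member was called, where 0.555% of all tested genes were. DESeq2 and limma-voom also called 0 members. In edgeR 12 of the 31 had an unadjusted p under 0.05, as did 745 of all 11885 tested genes. The median log2 fold change was -0.46, with 26 of 31 values below 0, and 11 members had no overlap in the lower direction against 5.92% of all tested genes. All 6 phagocyte membrane and pore genes were among these 11. Gpnmb went from 146, 172 and 172 CPM to 40.2, 73.0 and 114 CPM, a log2 fold change of -1.11 ± 0.36 (adjusted p = 0.357). Trem2 went from 14.2, 14.6 and 18.3 CPM to 4.99, 6.00 and 9.41 CPM, with -1.22 ± 0.38 (adjusted p = 0.282). Lyz2 went from 203, 206 and 292 CPM to 124, 153 and 179 CPM, a log2 fold change of -0.62 ± 0.18 (adjusted p = 0.192). Fcgr1 was the only member without overlap in the higher direction, where 6.9% of all tested genes had none, at 3.31, 3.56 and 3.91 CPM against 1.37, 1.55 and 2.17 CPM (adjusted p = 0.475). Mrc1 overlapped, with a log2 fold change of -1.31 ± 0.69.

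With IL-10 present in both arms, GM-CSF lowered 2 members and raised 0, against 0.135% and 0.724% of all tested genes, or 0.858% in all. The libraries did not overlap for 6 members in the lower and 2 in the higher direction, against 8.05% and 9.24% of all tested genes. Lyz2 went from 200, 208 and 287 CPM to 111, 140 and 150 CPM, a log2 fold change of -0.79 ± 0.18 (adjusted p = 0.0321). Ms4a6c went from 5.95, 6.28 and 8.16 CPM to 1.62, 3.11 and 3.56 CPM, with -1.32 ± 0.29 (adjusted p = 0.0264). Both calls rested on the libraries used: 0 members were called among libraries of high Y-linked level, and leaving out each library in turn gave 0 to 2 calls, with 0 without replicate 1 or 3 of WT GM-CSF + IL-10 or replicate 1 of WT IL-10. The difference between the effects of GM-CSF with and without IL-10 was itself not called for any member, at 0% of all tested genes. By DESeq2 or limma-voom it was called for 0 members. In edgeR 0 members had an unadjusted p under 0.05, against 149 of all 11885 tested genes.

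In Csf2ra-/- cells no member changed with GM-CSF at the threshold. The test called 0 members in edgeR, DESeq2 and limma-voom, and 0% of all tested genes were called. In edgeR 0 members had an unadjusted p under 0.05, against 531 of all 11885 tested genes. In 0 members did the libraries of the groups separate, against 1.92% of all tested genes in the higher and 2% in the lower direction. The median log2 fold change of the members was -0.02. Ccr2 went from 4.79, 6.36 and 7.03 CPM to 5.87, 6.28 and 8.38 CPM. For Gpnmb the values were 27.9, 31.9 and 33.4 CPM without and 27.2, 32.9 and 37.0 CPM with the cytokine. The difference between the effects of GM-CSF in Csf2ra-/- and WT cells was called for 0 members in edgeR, DESeq2 and limma-voom. Of all tested genes 0.0589% were called in edgeR. There 3 members had an unadjusted p under 0.05, as did 692 of all 11885 tested genes. A different response of the members in these genotypes is therefore not shown.

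IL-10 in WT cells moved no member past the threshold in edgeR, where 0.0505% of all tested genes were called. An unadjusted p under 0.05 was found there for 3 members and for 539 of all 11885 tested genes. DESeq2 called 1, Vcan, and limma-voom 0. Vcan went from 9.12, 12.4 and 16.7 CPM to 21.2, 22.6 and 24.4 CPM, a log2 fold change of 0.83 ± 0.19 with an adjusted p of 0.133 in edgeR and 0.0125 in DESeq2. Mrc1 had 36.3, 71.8 and 91.9 CPM with IL-10, all above the untreated 15.8, 22.6 and 23.1 CPM, and a log2 fold change of 1.71 ± 0.65 (adjusted p = 0.907). In all, 5 members had no overlap in the higher direction, as did 7.34% of all tested genes, namely Mrc1, Ccr2, Fn1, Ctsb and Vcan. Gpnmb had no overlap in the other direction, at 81.6, 122 and 143 CPM, as for 7.72% of all tested genes. The median log2 fold change of the members was 0.30.

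In GM-CSF-treated WT cells, IL-10 gave 0 called members by edgeR, DESeq2 and limma-voom and a median log2 fold change of 0.14. In edgeR 5 members had an unadjusted p under 0.05, as did 382 of all 11885 tested genes. Again 0.0505% of all tested genes were called. Vcan was the only member without overlap, at 27.5, 28.9 and 31.1 CPM with both cytokines against 16.4, 17.8 and 20.6 CPM with GM-CSF alone, while 3.47% of all tested genes had no overlap in this direction and 3.14% in the other. Its adjusted p was 0.443. Vcan thus had its highest level of the 8 groups in WT cells with both cytokines, at 29.2 ± 1.82 CPM (SD, n = 3), and its lowest in Csf2ra-/- cells, at 10.9 ± 2.73 CPM untreated and 10.9 ± 2.31 CPM with GM-CSF.

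**Figure D4:**
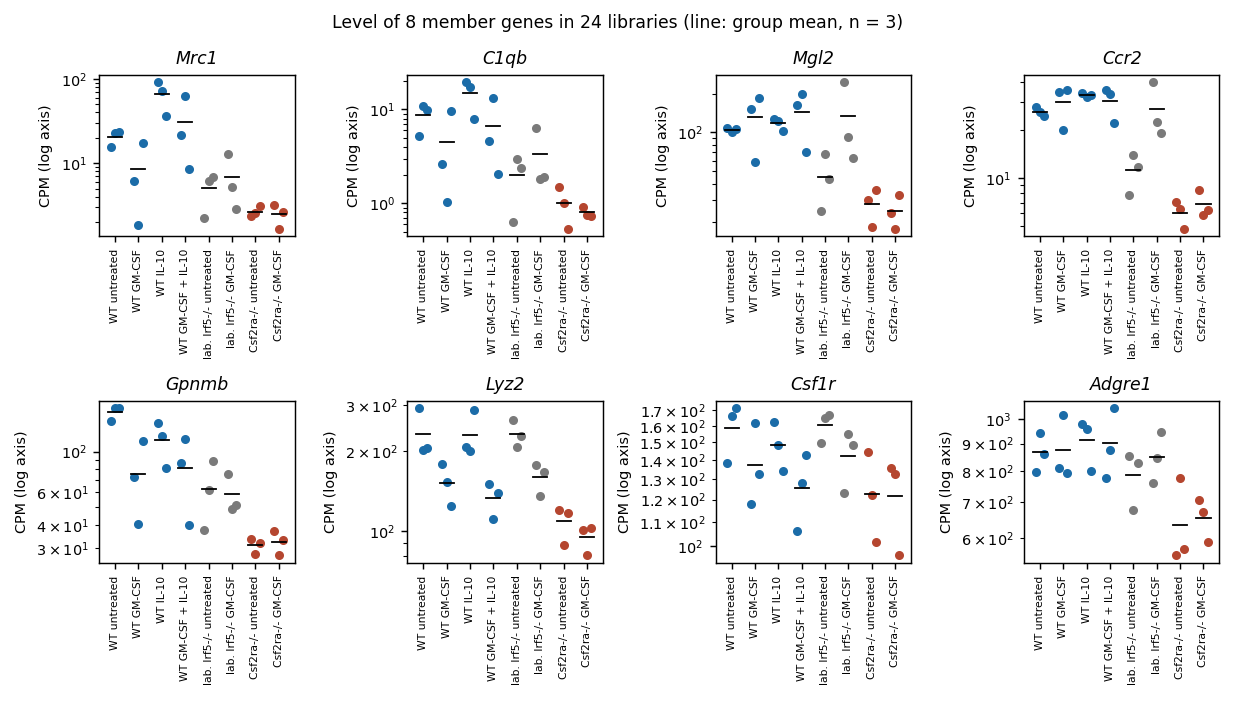
CPM of 8 members in 24 libraries on log axes, with WT libraries in blue, libraries labelled Irf5-/- in grey and Csf2ra-/- libraries in red, and lines at group means (n = 3). Mrc1, C1qb and Mgl2 spread widely within the WT groups given GM-CSF, alone or with IL-10, while Csf1r and Adgre1 keep to a narrow range.

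The libraries labelled Irf5-/-, in which Irf5 was higher and not lower, had lower values than WT for many members when untreated. None was called in edgeR, with 0.0337% of all tested genes called, 0.0168% in each direction. There 18 members had an unadjusted p under 0.05, as did 1668 of all 11885 tested genes. DESeq2 called 1, Ccr2, and limma-voom 0. The median log2 fold change was -0.88, and 18 members had no overlap in the lower direction, against 14.6% of all tested genes. In the higher direction it was 0 members and 11.4%. Ccr2 had 7.84, 11.7 and 14.0 CPM against 24.4, 25.7 and 27.8 CPM in WT, a log2 fold change of -1.18 ± 0.26 (adjusted p = 0.137 in edgeR and 0.00925 in DESeq2). Mrc1 had 2.24, 6.11 and 6.86 CPM, also below all 3 WT libraries, with -1.91 ± 0.73 (adjusted p = 0.303). Lyz2 and Csf1r overlapped, with log2 fold changes of -0.01 ± 0.18 and 0.02 ± 0.15. The count of called members was 12 when these 2 groups alone were fitted. The share of all tested genes called in that fit is not given here, so the 12 cannot be set against it. The untreated comparisons of both genotypes share the same 3 WT libraries and are not independent.

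GM-CSF raised Ccr2 in the libraries labelled Irf5-/-, the only member called there, while 0.353% of all tested genes rose. The libraries did not overlap for 5 members in the higher and 2 in the lower direction, against 8.73% and 7.19% of all tested genes. Its levels were 19.2, 22.5 and 39.9 CPM with GM-CSF and 7.84, 11.7 and 14.0 CPM untreated, a log2 fold change of 1.24 ± 0.26 (adjusted p = 0.0378). The call was lost under 10 of 15 alternatives, with adjusted p between 0.000998 and 0.457, among them the fit without untreated replicate 1, 2 or 3 or GM-CSF replicate 1 of this genotype. The score difference of 0.244 between these groups was 0.052 without untreated replicate 1, the shallowest library, and 0.104 without GM-CSF replicate 1. Mgl2 had 63.2, 92.5 and 247 CPM against 24.5, 43.4 and 68.4 CPM, overlapping, with 1.54 ± 0.50 (adjusted p = 0.433). Msr1 had 3.33, 4.72 and 8.03 CPM against 0.640, 2.25 and 2.35 CPM, without overlap (adjusted p = 0.606). With GM-CSF, the libraries labelled Irf5-/- and WT differed in 0 members by edgeR, DESeq2 and limma-voom, with a median log2 fold change of -0.05. Of all tested genes 0.0337% were called. In edgeR 1 member had an unadjusted p under 0.05, as did 173 of all 11885 tested genes. The libraries separated for 0 members, against 3.25% of all tested genes in the higher and 3.4% in the lower direction. The difference of the GM-CSF effects between the 2 was called for 0 members by the 3 tools, with 0% of all tested genes called. For this difference 5 members had an unadjusted p under 0.05 in edgeR, as did 375 of all 11885 tested genes.

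The members varied more between libraries of the same group than most genes did. The biological coefficient of variation, the part of the spread between replicates that read sampling does not give, had a median of 26.2% over the 31 tested members and 12.8% over all tested genes. It was above 27.2%, the 90th percentile of all tested genes, for 15 members. Fn1 had the largest value, 91.1%, followed by C1qa at 68.8%, C1qc at 65.6%, C1qb at 59.3%, Mrc1 at 57.8% and Pf4 at 53.8%. Fn1 moved with fibroblast collagen genes in the libraries labelled Irf5-/-. Untreated replicates 1, 2 and 3 had 0.160, 10.8 and 9.87 CPM of Fn1, 0, 15.0 and 5.56 CPM of Col1a1 and 0, 15.5 and 6.93 CPM of Col1a2. With GM-CSF, Fn1 was at 1.61, 9.84 and 5.45 CPM and Col1a1 at 0, 14.0 and 2.98 CPM. The 4 tested stromal and endothelial genes had median log2 fold changes against WT of 2.67 untreated and 3.38 with GM-CSF. In each, 0 were called in edgeR and 3 had an unadjusted p under 0.05. Of all 11885 tested genes, 1668 untreated and 173 with GM-CSF had such a p. The part of stromal cells in the Fn1 values was not tested. Ly6c2 at 9.58%, Ctsd at 10.5% and Ctsb at 11.3% were below the median gene.

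Within several groups, many members peaked in the same library. Untreated Csf2ra-/- cells were more even, with 14, 8 and 9 of 31 members highest in replicates 1, 2 and 3. In WT cells with IL-10, 23 of 32 members were highest in replicate 1 and 22 lowest in replicate 3. In WT cells with GM-CSF, 20 of 31 with a count were highest in replicate 3 and 20 lowest in replicate 2. With both cytokines 20 of 32 were highest in replicate 2, and in the GM-CSF libraries labelled Irf5-/- 22 of 31 were highest in replicate 1. The shallowest library, untreated replicate 1 labelled Irf5-/-, was the lowest of its group for 26 of 32. The Y-linked level moved with this order in WT cells. It was 59.9 CPM in the peak library with IL-10 and 175 CPM in the lowest, 52.6 and 176 CPM with GM-CSF, and 45.8 CPM in the peak library with both cytokines. In the GM-CSF libraries labelled Irf5-/- the peak library had the high level, 165 CPM. The part of the Y-linked level in the order was not tested. The members share library and depth with each other, so these counts are a description without a test. The matching share of all tested genes was not taken.

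Mrc1 was used as the reference for this order. Among the other 30 tested members, Gpnmb, Ctsl, Ctsb and Ms4a4c had their highest library in common with Mrc1 in 7 of 8 groups, which is 13.3% of them. The same held for 74 of the 11854 tested genes outside the list, or 0.624%. The median member shared the highest library with Mrc1 in 4.5 groups and the median other gene in 2. In the other members all 3 libraries were in the order of Mrc1 in at most 6 groups, for Gpnmb, Cd68 and Ctsl. Outside the list this held in 7 groups for 12 genes, counted only above a low cutoff on mean level, the lowest of them at 1.45 CPM. Among them, named after their values were seen, were App, the amyloid precursor protein, at 3.76 to 22.0 CPM, and Myof (myoferlin, a membrane repair protein). Slc7a2 (a transporter of arginine and other cationic amino acids) was at 1.05 to 32.2 CPM. Scpep1 (a lysosomal carboxypeptidase) and P2ry6 (a receptor for uridine nucleotides) were also among the 12. The rest were Pcbp2, Plcg1, Ramac, Rprd1a, Gm28042, Gpr132 and Gm42732. Pcbp2, the most abundant of the 12, was at 318 to 529 CPM and Plcg1 at 28.8 to 53.8 CPM. The dendritic cell sum had the same highest library in WT cells with GM-CSF (808 CPM), in WT cells with both cytokines (822 CPM) and in GM-CSF libraries labelled Irf5-/- (884 CPM), against 327 to 629 CPM in the other libraries of these 3 groups.

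Beyond the members, 43 of 51 other genes of the macrophage programme were tested. In untreated Csf2ra-/- cells 18 of them fell and 2 rose, against 5.32% and 5.52% of all tested genes. Their median log2 fold change was -0.69. Among those that fell were Arg1 (arginase 1) at -3.17 ± 0.93, Slc11a1, a phagosomal metal transporter, at -2.30 ± 0.31, Klf4, a transcription factor of monocytes, at -2.18 ± 0.57, and the scavenger receptor Cd36 at -2.15 ± 0.29. The 2 that rose, named after their values were seen, were the tetraspanin Cd63 at 0.53 ± 0.14 and Plac8 at 0.53 ± 0.10. Markers of resident tissue macrophages were at or near 0: Vsig4 had 0 counts in 24 libraries, Folr2 was at 0 in 17 and Timd4 in 16.

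In WT cells several genes of this wider programme rose with GM-CSF, while the members' median log2 fold change was -0.46. Of the 43 tested, 3 rose and 1 fell, against 0.412% and 0.143% of all tested genes. The median log2 fold change of the 43 was -0.02, with 21 values above 0 and 22 below. The receptor kinase Axl rose from 11.2 ± 0.678 to 41.1 ± 15.2 CPM (SD, n = 3), a log2 fold change of 1.88 ± 0.32 (adjusted p = 0.00333). Spp1 (osteopontin) rose by 1.31 ± 0.19 and Itgax (CD11c) by 0.70 ± 0.11, while the fractalkine receptor Cx3cr1 fell by 3.06 ± 0.66 to 0.212 CPM. With IL-10 present 7 rose and 1 fell, against 0.724% and 0.135% of all tested genes. Among the 7 were Axl at 1.89 ± 0.32, the elastase Mmp12 at 1.77 ± 0.27, the endotoxin co-receptor Cd14 at 1.21 ± 0.25 and Spp1 at 1.16 ± 0.19. In the libraries labelled Irf5-/- 4 rose with GM-CSF, namely Axl, Mmp12, Spp1 and Itgax, against 0.353% of all tested genes. There the members' median log2 fold change was above 0, at 0.11. In Csf2ra-/- cells 0 of the 43 were called in edgeR. There 5 had an unadjusted p under 0.05, as did 531 of all 11885 tested genes. Against WT cells with GM-CSF, 11 of the 43 were lower in Csf2ra-/- cells and 0 higher, against 2.89% and 0.909% of all tested genes. The 11 were led by Axl at -3.45 ± 0.35 and Mmp12 at -2.74 ± 0.28. The chitinase-like protein Chil3 at -2.46 ± 0.27, the lipoprotein lipase Lpl at -2.33 ± 0.25 and Cd36 at -1.73 ± 0.29 followed. Many of these genes, such as Itgax, are also used by other myeloid cells, and which cells carried them was not measured.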

How the data were processed

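The authors deposited whole-number read counts per Ensembl gene, 1 file per library, per the file headers. The submitters' processing notes name STAR, featureCounts and the build GRCm38.p6. Tool versions, the strand setting and the rule for multi-gene reads were not given in the sources used here. Symbols, coordinates and exon lengths came from GENCODE on GRCm38. The 34 genes without a symbol held 0.0189% of the counts and stayed in the fit.

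From the counts, CPM values were scaled by TMM factors. Genes kept by filterByExpr (11885 of 25746) were fitted over all 24 libraries and 8 groups with edgeR 4.0.16 (robust quasi-likelihood F-test, two-sided) in R 4.3.3, with 13 comparisons, 3 of them differences of GM-CSF effects, and Benjamini-Hochberg adjustment over all genes tested. Genes were called at an adjusted p under 0.05. SE is the absolute log2 fold change divided by the square root of F. The score used a pseudocount of 1 CPM and has no test. Csf1r was left out of the plotted sum of defining members because its level dominates it, a choice made after values were seen. On simulated counts for the GM-CSF effect in WT, with 11885 genes, 90% of 2-fold and 99% of 4-fold changes were recovered, with 5 false calls. Every simulated gene had the same spread, near the common biological coefficient of variation of 14.1%. The tested members had a median of 26.2%, so these rates do not carry over to them.

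Alternatives were DESeq2 1.42.0, limma-voom (limma 3.58.1), other size factors, other low-count filters, the compared groups alone, the level of Y-linked genes as a covariate, only libraries of high Y-linked level, and leaving out libraries. The members and lists were chosen with earlier results of these data known. All members with a count are named; of other macrophage genes, at most 5 called per comparison by size of log2 fold change, of which 1 gene is not reported here.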

Additional observations from a re-analysis of the deposited data

How the results depend on the processing

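Of 33 member calls, each tried under 15 alternatives (495 in all), 348 kept their call, 147 lost it and 0 reversed; 6 calls were never lost. Leaving out each library in turn gave 11 to 22 called members for untreated Csf2ra-/- against WT and 2 to 11 with GM-CSF. It gave 0 to 1 for GM-CSF in WT, 0 to 2 for GM-CSF with IL-10, 0 to 1 for IL-10 in WT and 0 to 1 for GM-CSF in libraries labelled Irf5-/-. Where this left 2 libraries in a group, the spread was estimated over all groups. The share of all tested genes called under each alternative is not given here, so the member counts cannot be set against it. Fitting only the groups compared gave 1 call for GM-CSF in WT (Trem2), 1 for GM-CSF with IL-10, 1 for IL-10 in WT (Fn1), 0 for GM-CSF in libraries labelled Irf5-/-, 12 for untreated libraries labelled Irf5-/- against WT, and 2 for Csf2ra-/- against WT with GM-CSF. DESeq2 gave 14 for the last of these, 1 for IL-10 in WT and 1 for untreated libraries labelled Irf5-/- against WT. The Y-linked covariate gave 1 call for GM-CSF in WT (Lyz2). For GM-CSF in libraries labelled Irf5-/-, the count was 0 with limma-voom, without a low-count filter, with the Y-linked covariate and without the 2 shallowest libraries. That last setting, chosen after the data were seen, gave 12 for untreated Csf2ra-/- against WT. Among the 14 libraries of high Y-linked level (above 100 CPM), also chosen after the data were seen, 5 members were called for untreated Csf2ra-/- against WT, 2 with GM-CSF, 0 for GM-CSF with IL-10 and 0 for GM-CSF in libraries labelled Irf5-/-; this fit has fewer libraries, with 1 left in 4 groups, which were assumed to vary like the others. The cause of these shifts was not tested. The score difference between untreated Csf2ra-/- and WT cells was -1.17, -1.31 with a pseudocount of 0.5 CPM and -1.04 at high Y-linked level. At that level it was 0.907 for GM-CSF in libraries labelled Irf5-/- and 0.457 for these against WT with GM-CSF, each with 1 library labelled Irf5-/- per group. The untreated library behind the 0.907 was the shallowest of the series. The libraries labelled Irf5-/- of low Y-linked level scored 4.20 and 4.11 untreated and 4.10 and 4.04 with GM-CSF. No paired analysis was possible because the labels give no replicate numbers that are shared between groups; the numbers used here follow the order of deposit. In the libraries labelled Irf5-/- the Y-linked levels were alike in both arms (179, 12.2 and 39.2 CPM untreated, 165, 13.4 and 44.2 CPM with GM-CSF), a hint of shared sources from the data and not from the design. Depth limits C1qa and Cd163, with 173 and 11 counts over 24 libraries.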
